A study of Mus musculus with 2 samples.

Results

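Antimicrobial effectors and S100 alarmins were examined across the cell types of the mouse colon lamina propria in wild-type (WT) and knockout (KO) animals. The set held 10 genes of the 31053 features counted in both libraries: S100a8, S100a9, S100a4, S100a6, Lyz1, Lyz2, Lcn2, Slpi, Acod1 and Nos2. They were taken by symbol, and all 10 were found. The rule uses no measured value, but the set was chosen with earlier results of these data known. Cells labelled cd11b+, a myeloid integrin subunit whose gene is Itgam, were profiled by 10x Genomics 3' single-cell sequencing, which tags every captured RNA with a unique molecular identifier (UMI). The WT library came from WT mice, and the KO library from mice that the labels call LncRNA17Rik knockout and the study calls lncLy6c deficient. The deletion was made by CRISPR-Cas9 in zygotes on the C57BL/6J background and is carried by every cell of the animal. The cells came from pooled male mice at 8 weeks of age, 6 in all. How the mice were divided between the libraries is not given in the sources used here. Each genotype has 1 library, so no difference below has a replicate check or a test, and every interval covers counting error only. The deleted gene could not be matched to a feature by its label, so the genotype labels were not checked.

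S100A8 and S100A9 form the calcium-binding heterodimer calprotectin, which neutrophils carry in bulk in their cytosol and which withholds metal ions from microbes and acts as an alarm signal when released. Lysozyme cleaves bacterial peptidoglycan, and the mouse carries a duplicated gene for it, with Lyz2 used by myeloid cells and Lyz1 by Paneth cells of the small intestine. Lipocalin-2 (Lcn2) binds bacterial siderophores, SLPI inhibits leukocyte proteases, the Acod1 product makes itaconate, and inducible nitric oxide synthase (Nos2) makes nitric oxide. S100A4 and S100A6 are small calcium-binding proteins of motile and proliferating cells.

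The S100 members lie on 1 stretch of chromosome 3, and the lysozyme genes lie close together on chromosome 10 (GRCm38, GENCODE M21). S100a8 spans chr3:90668978-90670035 on the plus strand and S100a9 spans chr3:90692632-90695721 on the minus strand, with 26.743 kb between their starts. S100a4 (chr3:90603771-90606045) and S100a6 (chr3:90612882-90624181) precede them, and the 4 genes fit within 91.95 kb. Lyz1 (chr10:117287797-117292868) and Lyz2 (chr10:117277331-117282321) are both on the minus strand with starts 10.547 kb apart. The remaining members are spread over the genome: Lcn2 at chr2:32384633-32388252 and Slpi at chr2:164354070-164389095, both on the minus strand, Acod1 at chr14:103046977-103056573 and Nos2 at chr11:78920787-78960254, both on the plus strand.

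The upstream sequences of both neighbouring pairs are shown because S100a8 and S100a9 shared their main class here, while Lyz1 and Lyz2 did not. They are the RefSeq windows of 250 bases before the gene start (GRCm38.p6), written 5' to 3' on the strand of the gene, without any bases that GENCODE places inside the gene (93 bases for S100a8 and 49 for Lyz2). The stretches shown are chr3:90668821-90668977 (plus strand) for S100a8, chr3:90695722-90695971 (minus) for S100a9, chr10:117292869-117293118 (minus) for Lyz1 and chr10:117282322-117282522 (minus) for Lyz2. Capitals mark matches to the 3 motifs searched on both strands, which were TATAAA (a core promoter box), TTGCNNAA (C/EBP) and AGGAAGT (ETS).
S100a8: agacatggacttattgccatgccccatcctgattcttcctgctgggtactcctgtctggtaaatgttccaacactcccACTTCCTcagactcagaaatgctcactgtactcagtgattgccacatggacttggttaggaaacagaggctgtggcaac
S100a9: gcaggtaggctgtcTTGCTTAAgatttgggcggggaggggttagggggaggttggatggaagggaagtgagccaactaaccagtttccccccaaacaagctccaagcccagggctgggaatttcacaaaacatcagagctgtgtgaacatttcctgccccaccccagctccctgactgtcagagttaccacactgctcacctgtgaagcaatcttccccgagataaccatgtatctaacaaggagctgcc
Lyz1: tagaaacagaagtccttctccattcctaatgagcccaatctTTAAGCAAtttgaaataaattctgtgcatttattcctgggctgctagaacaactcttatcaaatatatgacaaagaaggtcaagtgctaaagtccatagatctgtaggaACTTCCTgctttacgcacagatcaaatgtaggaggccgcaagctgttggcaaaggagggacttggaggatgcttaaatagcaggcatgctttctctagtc
Lyz2: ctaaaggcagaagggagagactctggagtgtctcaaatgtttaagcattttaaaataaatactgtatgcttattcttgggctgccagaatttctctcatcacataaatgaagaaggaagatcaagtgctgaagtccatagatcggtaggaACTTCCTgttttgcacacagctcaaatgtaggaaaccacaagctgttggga

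The lysozyme windows were identical at 152 of 250 positions (60.8%), and both carried an AGGAAGT match, on the strand opposite to the gene, 100 bases before the start. Lyz1 alone of the pair carried a TTGCNNAA match, 209 bases before its start. The S100a8 and S100a9 windows were identical at 66 of 250 positions (26.4%). S100a8 carried TATAAA 30 bases before its RefSeq start, within the bases not shown, and AGGAAGT at 172 bases, and S100a9 carried TTGCNNAA at 236 bases. Of the other members, S100a4 carried TATAAA at 31 bases, Acod1 carried TATAAA at 28 and AGGAAGT at 126, Lcn2 carried TTGCNNAA at 216, Slpi carried TTGCNNAA at 241, and S100a6 carried none. All 250 bases of the Lcn2 and Slpi windows lie inside the gene as GENCODE places it, so their matches do too. So do 12 bases of the S100a6 window and 35 of the Acod1 window, which hold its TATAAA. Over 32851 promoter windows of this length, 12.4% held TATAAA, 9.56% held TTGCNNAA and 7.69% held AGGAAGT. A match describes the letters of these windows only.

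Before any result on the members, the libraries were checked. The WT library held 3185 barcodes and the KO library 3020, of which 2597 and 2514 cells passed the study's filters, with a median of 5073 and 6564.5 UMIs per cell. The cell numbers that the study gives for both genotypes are higher than the barcodes held here. A single barcode was shared by both libraries, and none among the cells kept. The cd11b+ label describes only some of these cells. An Itgam UMI was seen in 40.0% of WT and 57.8% of KO cells, and B cell-like, T cell-like, plasma cell-like, stromal-like and epithelial-like clusters were present in both. The 8 neutrophil markers summed to 12836 CPM in WT against 14049 CPM in KO neutrophil-like cells, but Ly6g, the surface marker most used for these cells, reached only 10.1 and 21.8 CPM. Cells fell into 21 clusters, which were named from marker genes without using the members. Neutrophil-like cells were 78 of the WT cells (3.0%) and 261 of the KO cells (10.4%), and inflammatory monocyte-like cells were 67 and 340. Resident macrophage-like cells were 165 and 122. A cluster led by Ly6i and Mmp14 (634 WT and 47 KO cells) and one led by Retnla and Ccl24 (20 and 149) raised markers of both monocytes and macrophages and are called intermediate. Eosinophil-like cells (195 and 409) rest on Siglecf, Ccr3 and Alox15, also raised the neutrophil markers Retnlg, Mmp9 and Hdc, had no Epx UMI, and were shallow, at a median of 753 and 971 UMIs. The 3 clusters left without a name took up 7.86% of the WT and 4.73% of the KO library. Among them was a cluster of 74 WT and 46 KO cells led by Mcpt1 that raised the T cell markers Cd3e, Cd3d, Cd3g, Trbc2, Trac and Cd4. T cell-like values below leave it out, and its S100a4 level was 701 CPM in WT and 1185 CPM in KO. Levels are given as UMIs per 1000000 UMIs of a class (CPM) with an exact Poisson 95% interval.

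**Figure D1:**
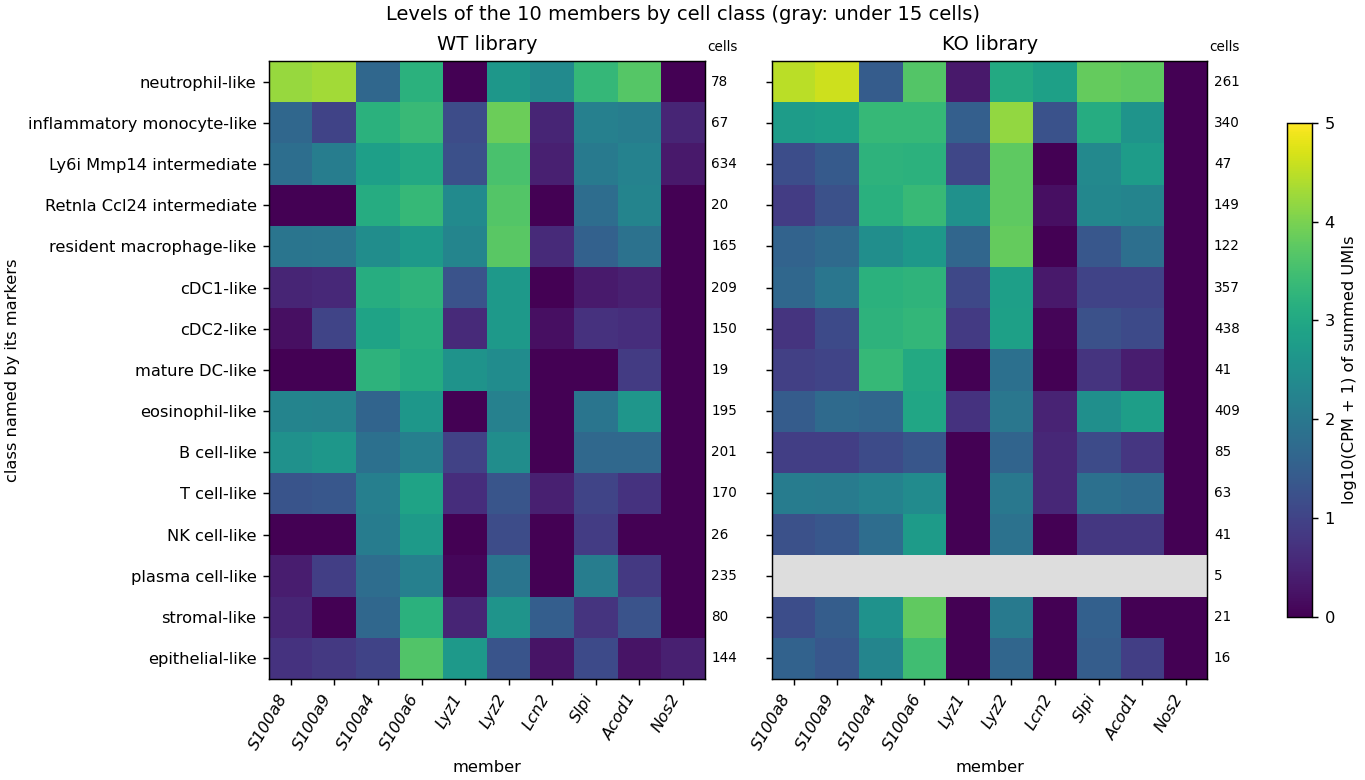
Levels of the 10 members by class (rows, with the number of cells at the right) in the WT and KO libraries, as log10(CPM + 1) of summed UMIs, with gray for classes under 15 cells. S100a8 and S100a9 are brightest in neutrophil-like cells in both libraries, Lyz2 in inflammatory monocyte-like cells, and Nos2 is dark throughout.

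Calprotectin transcripts came chiefly from neutrophil-like cells. In these cells S100a8 stood at 16950 CPM (16382 to 17532) in WT against 30155 CPM (29781 to 30531) in KO. S100a9 stood at 20610 CPM (19984 to 21252) and 40947 CPM (40511 to 41385). Both were thus higher in the KO library, S100a8 by 0.83 on the log2 scale (0.78 to 0.88, or 1.78-fold) and S100a9 by 0.99 (0.94 to 1.04). An S100a8 UMI was found in 88.5% of WT and 95.8% of KO neutrophil-like cells, and after thinning each cell to 1000 UMIs in 85.1% and 94.5%. Neutrophil-like cells were only 1.05% of all WT and 3.70% of all KO UMIs, but gave 83.3% and 91.2% of the S100a8 UMIs and 80.1% and 91.7% of the S100a9 UMIs. Over all kept cells S100a8 stood at 213 CPM for WT and at 1224 CPM for KO, a library with both more neutrophil-like cells and a higher level within them. These cells were also deeper in KO, at a median of 3009 UMIs against 2243.5, and the part of depth in the difference was not tested.

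Single neutrophil-like cells varied widely. The per-cell S100a8 level had a median of 9724 CPM in WT, from 0 in 9 of 78 cells to 94474 CPM, and a median of 22881 CPM in KO, from 0 in 11 of 261 cells to 121776 CPM. The ranges overlapped over nearly their whole length, and the middle 50% of cells ran from 1871 to 21005 CPM in WT and from 7841 to 39985 CPM in KO. S100a9 had a median of 12322 CPM in WT against 30880 CPM in KO. Across these cells S100a8 and S100a9 ranked alike, with a Spearman correlation of 0.86 over 78 WT cells and 0.90 over 261 KO cells, as a description of cells that share a library and differ in depth. S100a8 ranked less closely with S100a6 (0.55 and 0.48) and with Slpi (0.32 and 0.24), and with Acod1 the values were 0.18 and -0.04.

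Outside neutrophil-like cells, most calprotectin UMIs sat in a handful of cells that carried neutrophil markers. Of 2519 other WT cells, 19 held at least 10 S100a8 UMIs and together 89.5% of the 673 S100a8 UMIs found there. Of 2253 other KO cells, 20 held 92.9% of 2408. At least 4 of the 8 neutrophil markers were detected in 18 of these 19 WT cells and in 18 of these 20 KO cells, with a median of 6 markers against 1 in the remaining cells. Of the remaining cells, 57 in WT (2.28%) and 42 in KO (1.88%) also carried at least 4 markers. Values below without marker-carrying cells leave these out too. Among the remaining cells 2.12% in WT and 6.31% in KO had any S100a8 UMI, and of these 53 and 141 cells, 45 and 123 had exactly 1. The cells with at least 10 S100a8 UMIs had a median depth of 6493 UMIs in WT and 12132 in KO, against 5270 and 8113 in the rest. Whether they were doublets was not tested, because Scrublet called 0 WT and 4 KO cells (0.159%) and had therefore not worked. The 59 WT and 70 KO cells scored above the cut for the highest 3% of Scrublet scores, with ties at the cut left out, included 2 of the 19 and 9 of the 20.

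**Figure D2:**
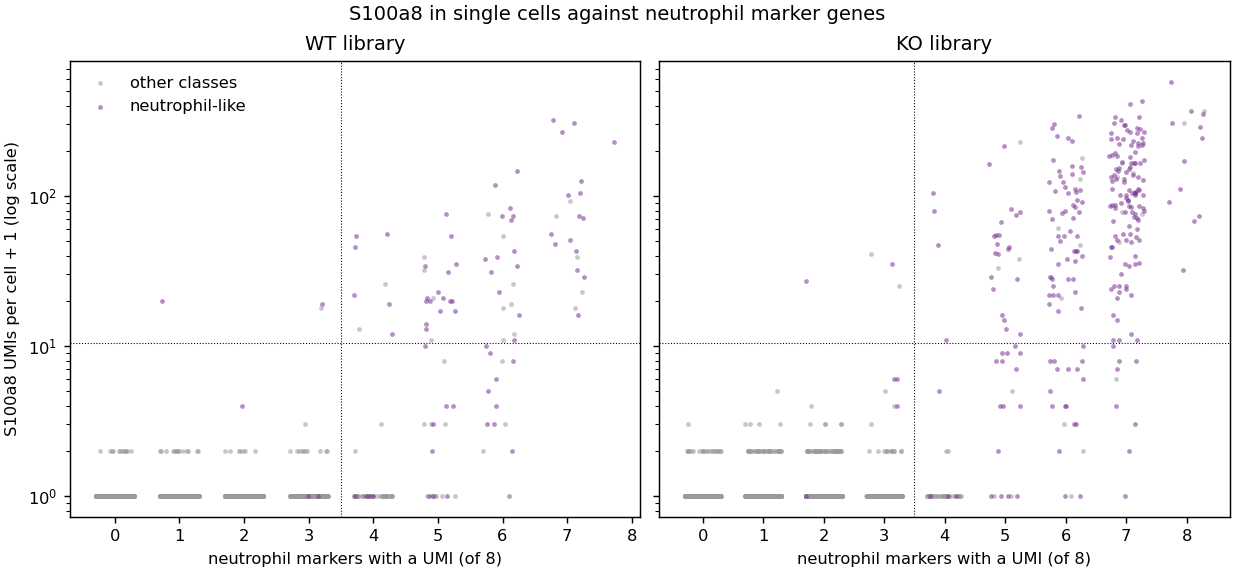
S100a8 UMIs per cell plus 1 (log scale) against the number of the 8 neutrophil markers with a UMI in that cell, for neutrophil-like cells (purple) and every other class (gray); points are jittered sideways and dotted lines mark 10 UMIs and 4 markers. Gray points with many S100a8 UMIs lie to the right, among the cells with 4 or more markers (18 of 19 in WT and 18 of 20 in KO).

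These few cells set the apparent S100a8 level of several classes. WT B cell-like cells stood at 335 CPM, the second highest named class of that library, and at 1.38 CPM once cells with at least 4 neutrophil markers were left out. KO inflammatory monocyte-like cells went from 575 to 24.3 CPM, with 24 of the remaining 66 UMIs in 1 cell, and their WT counterparts from 44.8 to 6.87 CPM. KO cDC1-like cells went from 44.7 to 3.5 CPM, and WT resident macrophage-like cells from 85.0 to 6.14 CPM. In WT eosinophil-like cells all 31 S100a8 UMIs came from 1 cell, and in KO 13 UMIs came from 13 cells. The unnamed KO cells went from 648 to 107 CPM, with 40 of the remaining 45 UMIs in 1 cell. With the marker-carrying cells left out, the highest other named class of at least 50 cells was T cell-like in WT at 18.7 CPM, of whose 21 UMIs 17 were in 1 cell, and eosinophil-like in KO at 28.0 CPM. The neutrophil-like level exceeded these 906-fold and 1077-fold.

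A named class was called a source where its lower bound exceeded 3 times the upper bound of the lowest class, on CPM and on UMIs per cell alike. Only named classes of at least 50 cells were considered, 12 in WT and 9 in KO. By this rule S100a8 had 5 source classes in each library. Without the marker-carrying cells it had neutrophil-like and T cell-like cells in WT and neutrophil-like and inflammatory monocyte-like cells in KO. S100a9 had 4 source classes in each library, and neutrophil-like cells alone once those cells were left out. The share of S100a8 within the pair differed between classes. S100a8 made up 45.1% (44.0 to 46.3%) of S100a8 and S100a9 UMIs in WT and 42.4% (42.0 to 42.8%) in KO neutrophil-like cells. WT inflammatory monocyte-like cells had 83.3% (62.6 to 95.3%), from 20 and 4 UMIs, and 3 and 1 without marker-carrying cells. KO inflammatory monocyte-like cells had 47.0% (45.4 to 48.6%) over all their cells, above the neutrophil-like value, and 37.1% (29.97 to 44.6%) without marker-carrying cells, an interval that includes the neutrophil-like value. KO cDC2-like cells had 27.8% (19.9 to 37.0%) and KO cDC1-like cells without marker-carrying cells 22.7% (14.5 to 32.9%), both below the neutrophil-like value. In KO cDC2-like cells S100a9 was found in 18.0% of cells, never with more than 2 UMIs, and in 1.14% after thinning.

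**Figure D3:**
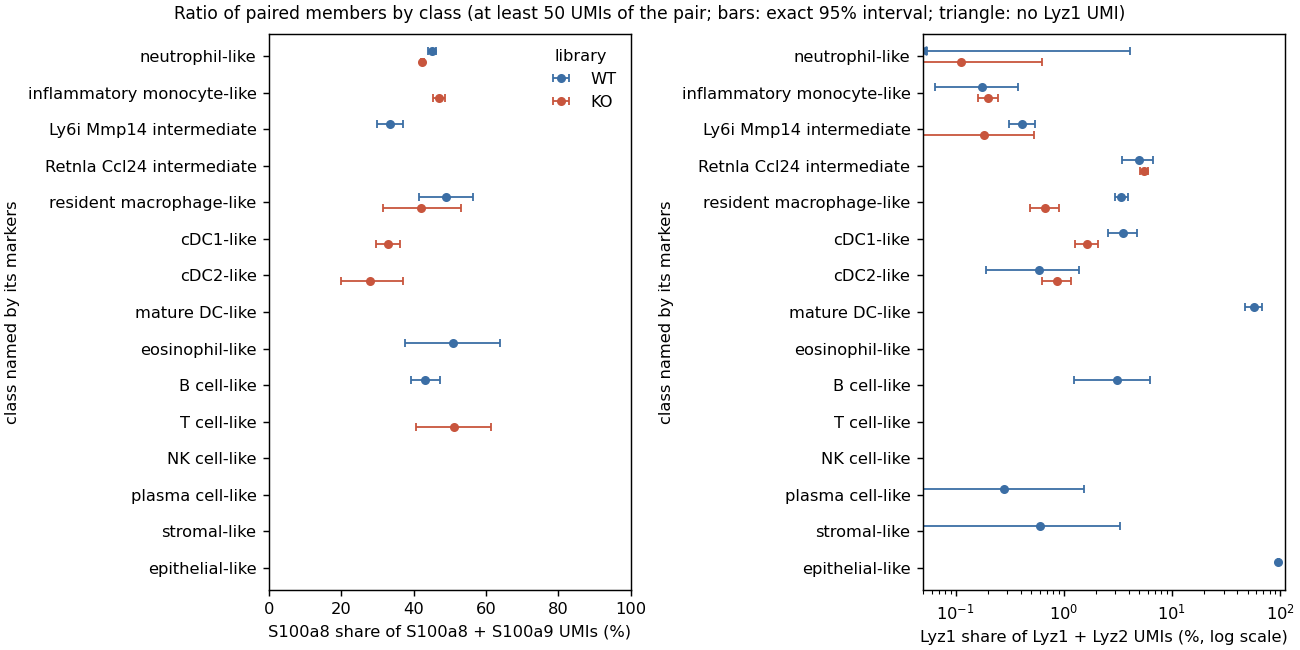
Share of S100a8 among S100a8 and S100a9 UMIs (left, linear axis) and of Lyz1 among Lyz1 and Lyz2 UMIs (right, log axis) by class, for the WT (blue) and KO (red) libraries, with exact 95% intervals and at least 50 UMIs of the pair. The calprotectin share is 45.1% in WT and 42.4% in KO neutrophil-like cells, while the Lyz1 share is under 1% in inflammatory monocyte-like cells and 96.3% in WT epithelial-like cells, and the triangle marks WT neutrophil-like cells, with no Lyz1 UMI among 89.

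Lcn2, Slpi and Acod1 were also highest in neutrophil-like cells in both libraries. Lcn2 stood at 247 CPM (183 to 326, 49 UMIs) in WT against 703 CPM (647 to 763, 581 UMIs) in KO. It was higher in KO by 1.51 on the log2 scale (1.09 to 1.96), and was found in 23.1% and 46.0% of the cells. Only 77 Lcn2 UMIs were counted in the whole WT library and 645 in the KO library, of which 63.6% and 90.1% came from neutrophil-like cells. The next class in WT was stromal-like, where 2 of 80 cells held 13 UMIs. In KO it was inflammatory monocyte-like, at 17.5 CPM, or 5.53 CPM without marker-carrying cells. In WT epithelial-like cells, whose Lcn2 is known to rise in inflamed gut, 2 UMIs were counted among 144 cells.

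Slpi had clear sources beyond neutrophil-like cells. In neutrophil-like cells it stood at 2155 CPM (1956 to 2369) in WT against 6715 CPM (6540 to 6894) in KO, a log2 difference of 1.64 (1.497 to 1.78). In inflammatory monocyte-like cells it stood at 152 CPM (118 to 193) in WT against 1230 CPM (1191 to 1271) in KO, a log2 difference of 3.02 (2.67 to 3.38), which was 2.88 without marker-carrying cells. A Slpi UMI was found in 31.3% of these WT cells and 69.7% of these KO cells, and in 7.46% and 42.0% after thinning. Both inflammatory monocyte-like clusters showed it: the larger, led by Chil3 and Ace, went from 137 CPM (50 cells) to 1144 CPM (303 cells), and the smaller, led by interferon-response genes such as Rsad2, from 190 CPM (17 cells) to 2169 CPM (37 cells). Eosinophil-like cells stood at 86.1 CPM (15 UMIs) in WT against 307 CPM (142 UMIs) in KO, a log2 difference of 1.84 (1.06 to 2.71). The source rule did not call them in either library, because these shallow cells passed on CPM but not on UMIs per cell. With a factor of 2 in place of 3 they were called in KO. With a factor of 3 the rule called the Ly6i and Mmp14 intermediate in WT (110 CPM, 24.4% of WT Slpi UMIs) and the Retnla and Ccl24 intermediate in KO (209 CPM). Each had too few cells to be called in the other library, where they stood at 221 CPM (47 KO cells) and 60.7 CPM (20 WT cells). In WT the rule also called B cell-like cells (39 UMIs, 1 without marker-carrying cells) and resident macrophage-like cells (36 and 11). Plasma cell-like cells were a separate WT source at 129 CPM, with a UMI in 38.7% of 235 cells, and gave 33.9% of all WT Slpi UMIs. The KO library held 5 such cells. By contrast, cDC1-like cells had the lowest Slpi CPM among classes of at least 50 cells, at 1.34 for WT and 8.98 for KO.

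Acod1 was found in nearly every neutrophil-like cell and differed least between the libraries of the 7 members counted there. It stood at 4859 CPM (4557 to 5176) in WT against 5792 CPM (5629 to 5958) in KO, a log2 difference of 0.25 (0.15 to 0.35), with a UMI in 94.9% and 99.2% of the cells. Eosinophil-like cells followed at 431 CPM (339 to 540) and 645 CPM (574 to 722), and the direction of this difference turned with cells classed by marker score. Only 54 of 195 WT and 199 of 409 KO eosinophil-like cells were deep enough for thinning, and 25.9% and 30.2% of those had an Acod1 UMI. Inflammatory monocyte-like cells stood at 132 CPM (101 to 170) in WT against 383 CPM (361 to 406) in KO, a log2 difference of 1.53 (1.16 to 1.94) that ran from 0.87 to 2.04 under the alternatives. Resident macrophage-like cells were at 77.4 and 66.0 CPM, with overlapping intervals. In the Ly6i and Mmp14 intermediate the level was 163 CPM in WT against 578 CPM in KO, where it rested on 47 cells.

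**Figure D4:**
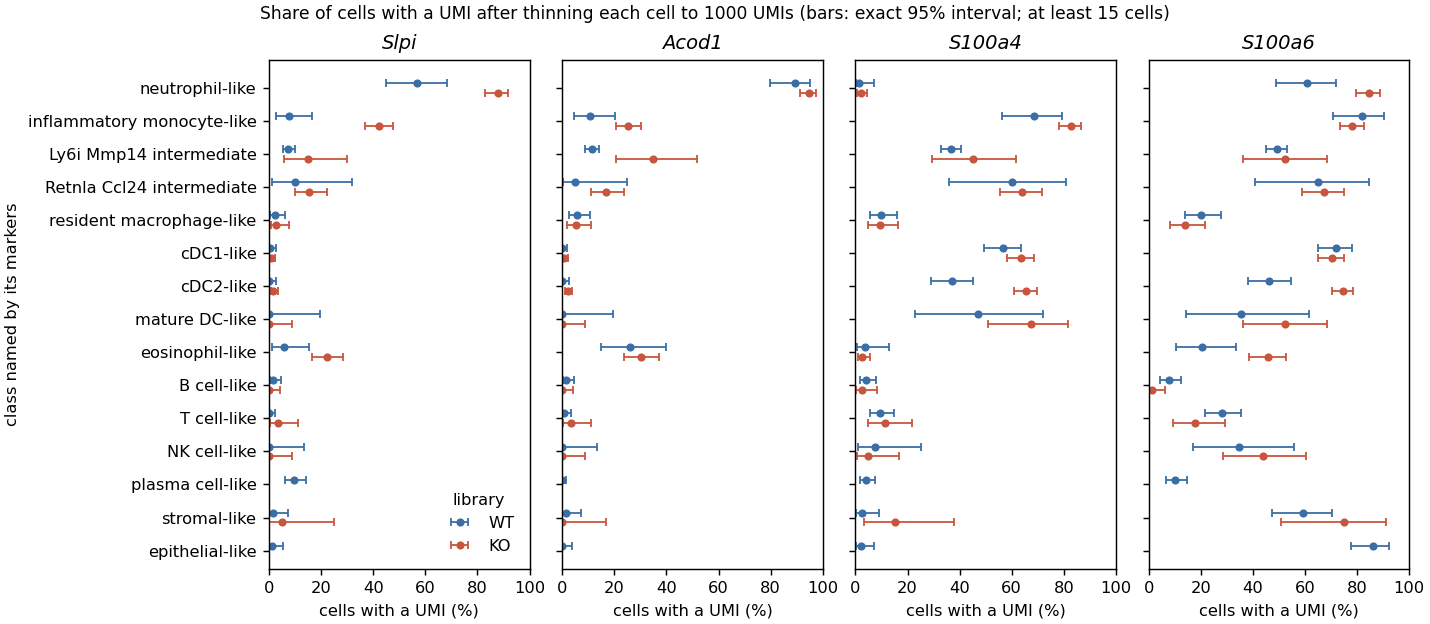
Share of cells with at least 1 UMI of Slpi, Acod1, S100a4 and S100a6 by class after thinning each cell to 1000 UMIs, for the WT (blue) and KO (red) libraries, with exact 95% intervals and classes of at least 15 cells. Shallower cells were left out, among them 141 of 195 WT and 210 of 409 KO eosinophil-like cells. Slpi separates the libraries in neutrophil-like, inflammatory monocyte-like (7.46% against 42.0%) and eosinophil-like cells, and S100a4 is rare in neutrophil-like cells of both.

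Lyz2 followed the monocyte and macrophage classes. It was highest in inflammatory monocyte-like cells, at 7689 CPM (7434 to 7950) in WT against 15780 CPM (15638 to 15924) in KO, a log2 difference of 1.04 (0.99 to 1.09). Both clusters differed the same way, from 9943 to 16747 CPM in the larger and from 1971 to 5214 CPM in the smaller. Resident macrophage-like cells followed at 5202 CPM (5065 to 5342) in WT against 6452 CPM (6294 to 6612) in KO. That difference of 0.31 turned to -0.27 when the cell with the most Lyz2 UMIs in each library was left out, since 1 KO cell held 2696 of 6358 UMIs. The intermediates stood at 3693 and 5866 CPM (Ly6i and Mmp14) and at 4692 and 5723 CPM (Retnla and Ccl24). Both dendritic classes stood far lower, cDC1-like at 497 and 666 CPM and cDC2-like at 496 and 692 CPM, and their intervals overlapped in both libraries. Neutrophil-like cells were at 448 CPM (360 to 552) in WT against 1067 CPM (998 to 1140) in KO, a log2 difference of 1.25 (0.94 to 1.58). Among classes of at least 50 cells, T cell-like and epithelial-like cells were the lowest in WT at 19.6 and 18.8 CPM.

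Pooling both inflammatory monocyte-like clusters, both intermediates and the resident macrophage-like cluster gave 4381 CPM of Lyz2 in WT against 10847 CPM in KO, a log2 difference of 1.31 (1.29 to 1.33). This pool held 87.7% of WT and 86.6% of KO Lyz2 UMIs. Different clusters dominated it, the Ly6i and Mmp14 intermediate with 634 of 886 cells in WT and the larger inflammatory monocyte-like cluster with 303 of 658 in KO, so makeup and level cannot be told apart in the pooled value.

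Lyz1 was rare and sat mostly in few cells, though 21.5% of cells of the KO Retnla and Ccl24 intermediate had a UMI. The WT library had 1511 Lyz1 UMIs in 76 cells and the KO library 845 in 112 cells. In WT, 73.1% came from epithelial-like cells (482 CPM), and 1 cell held 1088 of their 1104 UMIs. In the 2 epithelial-like cells with at least 10 Lyz1 UMIs, alpha-defensin (Defa) genes, which are Paneth cell products, reached 420849 CPM, against 20.96 CPM in the other epithelial-like cells. In KO, 69.2% of Lyz1 UMIs came from the Retnla and Ccl24 intermediate, at 336 CPM (309 to 365), where 13 of 149 cells held 89.9% and no Defa UMI was found in those 13. The same cluster stood at 243 CPM (170 to 336) in WT, from 20 cells of which 1 held 27 of the 36 UMIs. Resident macrophage-like cells were at 183 CPM (158 to 211) in WT against 43.6 CPM (31.6 to 58.8) in KO, a log2 difference of -2.07, where 4 WT cells held 89.1% of the 192 UMIs. Under other filters and clusterings that difference ran from -3.72 to 1.79, so its direction turned. Neutrophil-like cells had 0 Lyz1 UMIs in WT, which allows up to 15.1 CPM, and 1 in KO.

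The lysozyme copies are similar enough for the counting to matter. Their main transcripts were 92.0% identical over their whole length and 93.8% over the last 300 bases, where 3' reads fall, with a longest shared run of 104 bases there, and 55 of 251 windows of 50 bases (21.9%) were shared. Reads from shared stretches cannot be assigned to 1 copy, so low Lyz1 counts in cells rich in Lyz2 are uncertain. In inflammatory monocyte-like cells, the class richest in Lyz2, Lyz1 was 0.174% of lysozyme UMIs in WT and 0.200% in KO. It was 4.92% and 5.55% in the Retnla and Ccl24 intermediate, 3.40% and 0.672% in resident macrophage-like cells, and 96.3% in WT epithelial-like cells. The ratio thus differed many-fold between classes, beyond counting error. S100a8 and S100a9 transcripts were 54.2% identical over their whole length, with no shared window of 50 bases and a longest shared run of 10.

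S100a4 was highest in inflammatory monocyte-like cells and dendritic cells and low in neutrophil-like cells. Inflammatory monocyte-like cells stood at 1591 CPM (1476 to 1712) in WT against 2279 CPM (2225 to 2334) in KO, a log2 difference of 0.52 (0.41 to 0.63). cDC1-like cells stood at 1305 and 1553 CPM, a log2 difference of 0.25 (0.19 to 0.31). cDC2-like cells stood at 811 CPM (768 to 855) and 1719 CPM (1687 to 1750), a log2 difference of 1.08 (1.00 to 1.17), and the thinned share of cells with a UMI was 36.9% and 65.4%. The contrast between the dendritic classes did not hold under other filters and clusterings, where the cDC2-like difference ran from 0.53 to 1.09 and the cDC1-like one from 0.24 to 1.22. With the stricter cell filter they were 0.58 and 1.22. Mature DC-like cells were at 1712 CPM from 19 cells and 2283 CPM from 41. Resident macrophage-like cells were much lower at 277 and 293 CPM, with overlapping intervals, and this log2 difference of 0.08 ran from -0.58 to 2.20 under the alternatives. Neutrophil-like cells had 9 UMIs in WT (45.3 CPM) and 23 in KO (27.8 CPM), in 6.41% and 4.98% of cells, and eosinophil-like cells stood at 40.2 and 43.3 CPM. In the pooled monocyte and macrophage clusters S100a4 went from 689 to 1698 CPM, a log2 difference of 1.30 (1.25 to 1.36), with the same difference in makeup.

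S100a6 was widely carried, with 8 source classes in each library, of 12 considered in WT and 9 in KO. Its highest WT class was epithelial-like at 4373 CPM (4288 to 4460), with a UMI in 88.9% of 144 cells. In KO the highest class with at least 50 cells was neutrophil-like, while the 21 stromal-like cells stood at 6106 CPM and the 16 epithelial-like cells at 2910 CPM. Neutrophil-like cells went from 1581 CPM (1411 to 1766) to 4573 CPM (4428 to 4721), a log2 difference of 1.53 (1.37 to 1.70), and from 60.8% to 84.6% of cells after thinning. Inflammatory monocyte-like cells were at 2412 CPM (2270 to 2561) in WT against 2235 CPM (2181 to 2289) in KO, a log2 difference of -0.11. cDC1-like cells were at 1801 and 1767 CPM and resident macrophage-like cells at 477 and 472 CPM, each pair with overlapping intervals, while cDC2-like cells went from 1358 to 2053 CPM. Eosinophil-like cells went from 442 to 913 CPM, a log2 difference of 1.05 (0.69 to 1.42). Within inflammatory monocyte-like cells S100a6 ranked with S100a4, with a Spearman correlation of 0.79 over 67 WT cells and 0.61 over 340 KO cells.

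Nos2 was close to absent. The WT library held 9 Nos2 UMIs in 8 cells (0.474 CPM, 0.217 to 0.899), of which 4 cells were epithelial-like, 3 belonged to the Ly6i and Mmp14 intermediate and 1 was inflammatory monocyte-like. The KO library held 0 among 22331342 UMIs, which allows up to 0.134 CPM. That limit lies below the WT interval, but the WT value rests on 9 UMIs, of which 4 came from epithelial-like cells, a class of 144 WT and 16 KO cells. No class was a source.

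**Figure D5:**
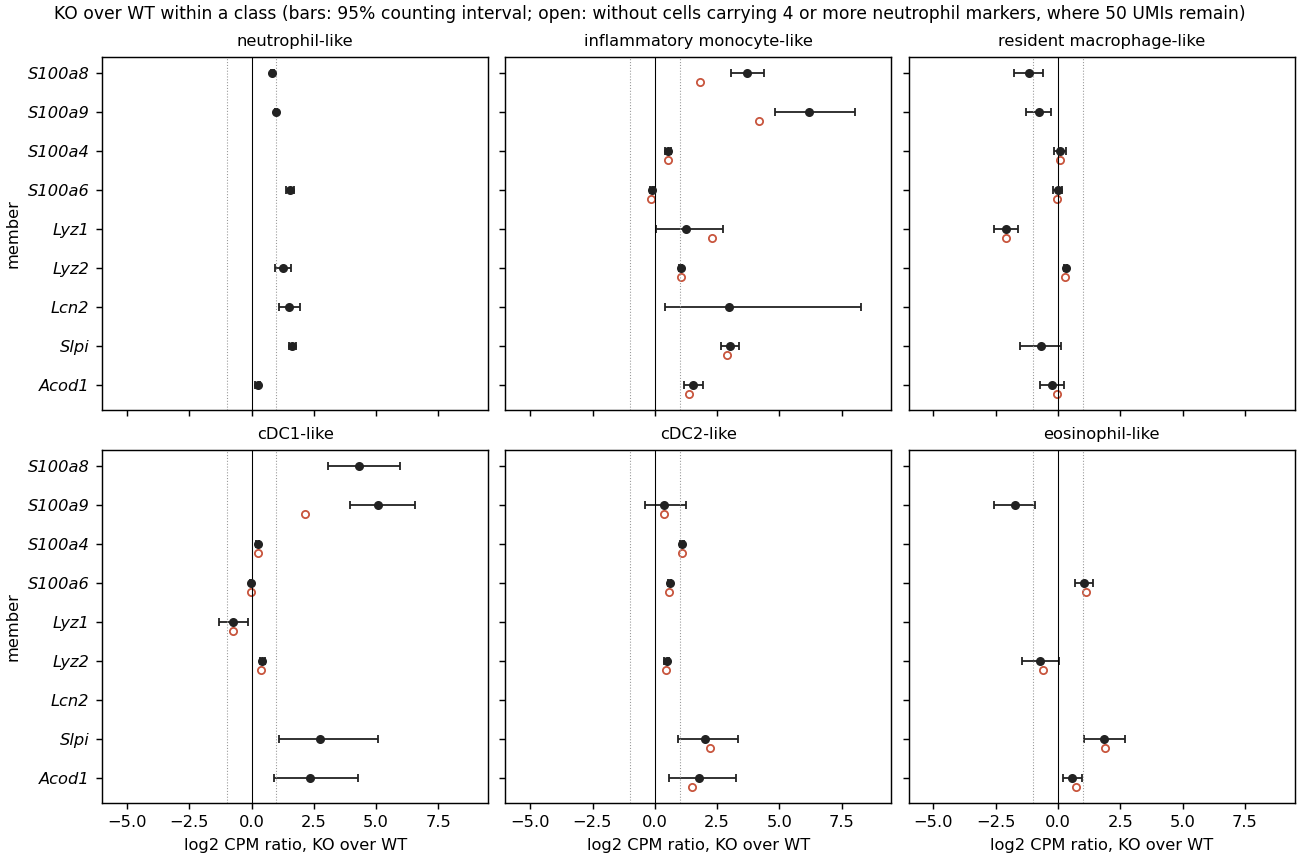
Log2 ratio of KO over WT CPM for each member within 6 classes, for members with at least 50 UMIs over both libraries, with exact 95% counting intervals; open circles leave out cells carrying 4 or more neutrophil markers, where 50 UMIs remain, and dotted lines mark a 2-fold difference. In neutrophil-like cells all 7 members shown lie to the right of 0, from 0.25 for Acod1 to 1.64 for Slpi, whereas S100a6 and S100a4 lie close to 0 in resident macrophage-like cells.

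The members' differences between the libraries were set against those of all genes with at least 50 UMIs in a class, a filter that left out 1 to 5 of the 10 members depending on the class and that a gene can pass through 1 library alone. In neutrophil-like cells 7 members were counted, and S100a6, Lyz2, Lcn2 and Slpi were at least 2-fold higher in KO and none lower, against 12.3% of 2208 genes past 2-fold either way. Lyz2 fell to 0.96, under 2-fold, without the cells of highest doublet score, and Lcn2 ran up to 2.37 without the 5 highest cells of each library. S100a8 and S100a9, under 2-fold here, passed it in some alternatives. The members' median log2 ratio was 1.25, against -0.08 over all genes. In inflammatory monocyte-like cells 7 of 9 counted members were at least 2-fold higher, against 10.6% of genes, with a median of 1.53 against -0.11. Of those 7, S100a8, S100a9, Lcn2 and Lyz1 had only 20, 4, 1 and 6 UMIs in WT. They were counted through the KO library, so nothing is read from the number or the median. Without the highest cell of each library Lyz1 went from 1.24 to 0.57 (-1.12 to 2.93), under 2-fold. S100a8, S100a9 and Lcn2 went from log2 ratios of 3.68, 6.18 and 2.97 to 1.83, 4.17 and 1.27 without marker-carrying cells, and S100a8 was -0.42 with cells classed by marker score. Acod1, another of the 7, was under 2-fold at Leiden resolution 2 (0.87) and with cells classed by marker score (0.90). In the pooled monocyte and macrophage clusters 7 of 9 were higher, against 7.45% of genes, in a pool whose makeup differed between the libraries. Lyz1 is one of the 7, and its difference of 1.11 ran from -1.29 to 1.21 under other settings. Lcn2 is another, with 10 UMIs in WT and 53 in KO, or 5 and 16 without marker-carrying cells, and Lyz2 fell to 0.98, under 2-fold, with 4000 variable genes.

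The other classes gave differences in both directions. In cDC1-like cells 4 of 8 counted members were higher, against 4.46% of genes, namely S100a8, S100a9, Slpi and Acod1. These had 5, 6, 3 and 4 UMIs in WT and 259, 531, 52 and 52 in KO, so they were counted through the deeper KO class alone and nothing is read from their number. In cDC2-like cells S100a4, Slpi and Acod1 were higher, 3 of 6, against 12.3%. The S100a4 difference fell under 2-fold in several alternatives, to 0.53 at the lowest, and Slpi and Acod1 had only 7 and 6 UMIs in WT. In eosinophil-like cells S100a6 and Slpi were higher and S100a9 lower, of 5 counted, against 7.65%. The S100a6 difference ran from 0.60 to 1.55 under the alternatives, and without marker-carrying cells S100a9 had 6 UMIs in WT and 23 in KO, a log2 difference whose interval ran from -0.73 to 2.19. In resident macrophage-like cells S100a8 and Lyz1 were lower, 2 of 8, and none was higher, against 11.6% of genes, but the direction of Lyz1 turned under 3 alternatives, and without marker-carrying cells S100a8 had 6 UMIs in WT and 8 in KO. In B cell-like cells 5 of 5 were lower, against 7.93%. S100a8, S100a9, S100a4, S100a6 and Lyz2 had 267, 352, 54, 113 and 220 UMIs in WT and 3, 3, 5, 8 and 16 in KO, so all were counted through WT alone and nothing is read from their number. Without marker-carrying cells S100a8 had 1 UMI in WT and 3 in KO, and S100a9 had 6 and 3. In T cell-like cells S100a8, S100a9 and Lyz2 were higher and S100a6 lower, of 5 counted, against 21.3%. Without marker-carrying cells S100a8 had 21 UMIs in WT and 2 in KO, and S100a9 had 24 and 6, and 1 WT cell held 17 of the 21 and 1 held 22 of the 24. All counts compare 1 library with 1 library.

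A wider list of 48 related genes, of which 47 were found, covered other S100 proteins, receptors, granule proteins, the NADPH oxidase and iron handling. In neutrophil-like cells 2 of its 16 counted genes were at least 2-fold higher in KO and 1 lower, against 12.3% of all genes past 2-fold, and its median log2 ratio was 0.35, against -0.08 over all genes. The higher genes were S100a11, another S100 protein, at 1168 CPM in WT against 3925 CPM in KO, and Pglyrp1, a peptidoglycan-binding protein, at 373 and 860 CPM. The lower gene was Bsg, a receptor for S100A9, at 121 and 41.1 CPM. Fth1, the ferritin heavy chain, stood at 21764 and 37716 CPM. Among inflammatory monocyte-like cells 4 of 21 genes were higher and none lower, against 10.6% of all genes, S100a10, Pglyrp1 and Saa3 among them. Pglyrp1 and Saa3 had 10 and 5 UMIs in WT and 312 and 133 in KO, so they were counted through KO alone, and they were not recomputed without marker-carrying cells. Nothing is read from the number of higher genes in this class. Among resident macrophage-like cells S100a10 was higher, and Ass1 (42 UMIs in WT and 10 in KO) and Saa3 (62 and 4) were lower, of 18 counted, against 11.6% of all genes. In all, 11 genes, including the granule genes Camp, Ngp, Elane and Mpo of immature neutrophils, had fewer than 50 UMIs over both libraries.

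The genes whose profile over 21 class and library combinations was most like each member were named by Pearson correlation of log levels, as a description with no test. They were Cxcr2 for S100a8 (0.94) and S100a9 (0.93), Lrg1 for Lcn2 (0.97), Trem3 for Slpi (0.91) and Clec4d for Acod1 (0.96). Cxcr2 is 1 of the 8 neutrophil markers used to name clusters, so its likeness is not independent of the classes. For Lyz2 the closest genes were Ifi207 (0.96) and, among the first 3, Csf1r (0.93), the receptor for macrophage colony-stimulating factor. For S100a4 the first was Tnfsf9 (0.94), for S100a6 Anxa2 (0.87) and for Lyz1 Edn1 (0.85), while for Nos2, with 9 UMIs, the value for Ifi44 (0.86) rests on too few counts to read.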

How the data were processed

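The authors deposited raw UMI counts per gene and barcode for each library, made with Cell Ranger 3.0.2 per the file headers. The submitters' processing notes name mm10 and Seurat 4. Cells with fewer than 200 or more than 6000 genes, or over 15% mitochondrial UMIs, were removed (18.5% of WT and 16.8% of KO barcodes). Counts were scaled to 10000 per cell, and 2000 variable genes without the members gave 30 principal components, 15 neighbours and Leiden clusters at resolution 1 (scanpy 1.11.5, leidenalg 0.10.2, Python 3.11.15). A cluster was named "-like" where at least 3 markers of a class were raised 2-fold (prior of 10 CPM) in at least 10% of its cells. Every barcode was treated as 1 cell and doublets were not removed, since Scrublet called 0.159% at most. UMIs were summed per class and library. Intervals for levels (exact Poisson), ratios (conditional binomial) and shares (Clopper-Pearson) are at 95% and cover counting error only, so they ignore spread between cells and mice. They were run on Poisson and binomial counts simulated under their own assumptions, which checks the code and not their fit to these UMIs. A count of 0 was bounded by 3 counts. Ratios were computed for classes of 50 or more cells per library. Named genes were the members, the wider list and the closest profiles (the first 3 by correlation among genes with at least 200 UMIs). Members, lists and markers were chosen with earlier results of these data known. The alternatives were other cell filters, clusterings, class assignments, denominators, source factors and thinning depths. Values of 1 gene on the wider list are not reported here. Promoters were matched by symbol for 9 of the 10 members, and 30934 of the 31053 features had an identifier in GENCODE M21.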

Additional observations from a re-analysis of the deposited data

Results flagged for a closer look

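Differences between libraries that ran in opposite directions in 2 classes were taken up here, after leaving out cells with at least 4 neutrophil markers. With 1 library a genotype, none of these differences was tested. The widest gap for S100a4 lay between cDC2-like cells, higher in KO, and B cell-like cells, with 51 UMIs in WT and 5 in KO, at 3.56 on the log2 scale. Over all B cell-like cells 1 WT cell held 25 of 54 S100a4 UMIs. For S100a6 the gap between neutrophil-like and B cell-like cells, the latter with 80 UMIs in WT and 8 in KO, was 3.98. For Lyz2 the gap between T cell-like cells, with 22 UMIs in WT and 34 in KO, and B cell-like cells, with 142 and 16, was 4.45, and 1 WT B cell-like cell held 63 of the 142. For Lyz1 the gap between inflammatory monocyte-like and resident macrophage-like cells was 4.399. It rests on 3 WT UMIs in inflammatory monocyte-like cells, and the resident macrophage-like difference changed sign under 3 alternatives. Over all their cells, 1 KO inflammatory monocyte-like cell held 64 of 94 Lyz1 UMIs, and 4 WT resident macrophage-like cells held 89.1% of 192. B cell-like cells take part in 3 of these 4 gaps.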

How the results depend on the processing

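Calls are described for neutrophil-like cells (S100a8, main log2 KO over WT 0.83; S100a9, 0.99; Slpi, 1.64; Acod1, 0.25) and for the pooled monocyte and macrophage clusters (Lyz2, 1.31; S100a4, 1.30). These 6 values kept their direction under every alternative run, and 35 alternative values left the counting interval, as follows. The cause was not tested. The number of member and class pairs called sources, 50 in WT and 42 in KO, ranged from 38 to 58 and from 33 to 48. In the main analysis these came from 12 WT but only 9 KO classes, so the libraries' numbers are not comparable. With every deposited barcode S100a8 was 0.90, S100a9 1.06, Lyz2 1.55 and S100a4 1.41. With the stricter cell filter S100a9 was 1.05, Slpi 1.84, Lyz2 1.60 and S100a4 1.37. At Leiden resolution 2 Lyz2 was 1.28. With 4000 variable genes S100a8 was 0.76, S100a9 0.92, Lyz2 0.98 and S100a4 1.24. With the members allowed among the variable genes S100a8 was 0.93, S100a9 1.07, Lyz2 1.56 and S100a4 1.38. With each library clustered alone S100a8 was 1.06, S100a9 1.23, Slpi 1.86, Acod1 0.52 and Lyz2 1.23. With each cell classed by its highest marker score S100a8 was 1.05, S100a9 1.15, Slpi 1.89, Acod1 0.48 and S100a4 1.24. With CPM computed without mitochondrial, ribosomal and immunoglobulin UMIs S100a8 was 0.78, S100a9 0.94 and Lyz2 1.34. In alternatives chosen after seeing the data, leaving out cells with 4 or more neutrophil markers gave Lyz2 1.28, and leaving out the 5 highest cells of each library gave S100a8 1.29, S100a9 1.35, Slpi 2.11 and Acod1 0.43.

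Of the other values, 12 changed sign, 4 of them in the pooled clusters and the rest in single classes. Lyz1 in the pooled clusters (1.11) was -1.29 with every barcode, -0.47 with the stricter filter, -0.0918 with 4000 variable genes and -0.76 with the members allowed. Lyz1 in resident macrophage-like cells (-2.07) was 1.79 at resolution 0.5, 0.98 with each library clustered alone and 0.61 by marker score. S100a4 in resident macrophage-like cells (0.08) was -0.58 with the members allowed and -0.14 without the highest cell of each library, and Lyz2 there (0.31) was -0.27 without the highest cell. By marker score S100a8 in inflammatory monocyte-like cells (3.68) was -0.42 and Acod1 in eosinophil-like cells (0.58) was -0.36. No paired analysis was possible because each genotype has 1 library. Depth limits Nos2, Lcn2 outside neutrophil-like cells and Lyz1 outside the few cells rich in it.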
